A study of Mus musculus with 7 samples.

Results

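The 5 neighbouring oocyte transcripts described here lie in a 460 kb window of mouse chromosome 4: Gm11758, Gm11757, Gm13871, Gm11756 and A230083N12Rik. The window took in every transcript of the deposited table that starts there, on either strand. It held 9 of the 33437 transcripts, from Gm13867, which starts at position 73864010, to Kdm4c, which starts at position 74251675 (GRCm38), and the 5 listed ones are those of the 9 that passed a filter on low values (at least 1 RPM, reads scaled to the mapped reads of the library, in at least 3 libraries). They were selected on their RPM values, being higher in Setd1b cKO than in Setd1b WT oocytes, so their values in that comparison are a description and carry no test.

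Each library was made from 1 germinal vesicle (GV) oocyte of a 21-day-old female, with the strain labelled C57BL6 (C57BL/6OlaHsd in the study's methods). GV oocytes are fully grown oocytes still arrested in the first meiotic prophase. Both groups carried floxed Setd1b alleles. The 4 Setd1b cKO libraries came from Gdf9-Cre positive females, in which Cre is made in the oocyte from the start of follicle growth, and the 3 Setd1b WT libraries from females labelled Cre-negative. The study's methods also count females heterozygous for the deletion with Gdf9-Cre as WT. Which oocytes had the same mother is not labelled, so the spread given here is that between oocytes.

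SETD1B is a histone methyltransferase that places methyl groups on lysine 4 of histone H3, a mark of active promoters. Tandem gene copies arise by duplication of a stretch of chromosome, and recent copies can be so alike that a short read fits several of them. Antisense RNAs are transcribed from the strand opposite to another gene.

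Gm11758, Gm11757, Gm13871 and Gm11756 are copies of 1 protein-coding gene, still known by placeholder names, that stand head to tail on the minus strand. Their deposited transcripts lie at chr4:73872219-73876374, chr4:73887066-73891112, chr4:73901907-73905953 and chr4:73916732-73920760 (GRCm38). The lower coordinates of neighbouring copies are 14.8 kb apart at each of the 3 steps. In GENCODE release M21 each has 6 exons, with 360 codons in the first 3 copies and 356 in Gm11756. Their transcripts were 99.6% to 100% identical over the 6 pairs, and those of Gm11758 and Gm13871 had 0 mismatches over 1324 aligned bases. The deposited Gm11758 transcript begins 108 bases before the GENCODE start, and those of the other copies begin at it.

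Gm11758 and Gm13871 do not differ in any coding base, and 1 coding base tells Gm11757 from both. It is T1165C, where the position is counted from 1 at the 5′ end of the Gm11757 transcript, the base of Gm11757 comes first and the other base is that of Gm11758, Gm13871 and Gm11756. The stretches of exon 6 around it are shown because they carry this difference, which stands in capitals, and Gm428, a related copy outside the window, is given for comparison.
Gm11757, chr4:73887195-73887255, minus strand: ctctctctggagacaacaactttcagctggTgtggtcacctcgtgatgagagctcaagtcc
Gm11758, chr4:73872349-73872409, minus strand: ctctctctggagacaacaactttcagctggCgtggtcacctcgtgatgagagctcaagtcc
Gm428, chr4:73687369-73687429, plus strand: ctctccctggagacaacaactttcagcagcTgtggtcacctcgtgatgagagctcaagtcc

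Gm11756 is the most distant of the 4 copies. It differs from Gm11757 by 5 substitutions (G91T, G155A, G157A, C169T and T1165C) and lacks 12 coding bases, positions 214 to 225 of the Gm11757 transcript, which by this alignment begin exon 3. The spliced coding sequence around the gap is shown with those 12 bases in capitals.
Gm11757, exons 2 and 3: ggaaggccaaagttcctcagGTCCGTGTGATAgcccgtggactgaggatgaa
Gm11756, exons 2 and 3: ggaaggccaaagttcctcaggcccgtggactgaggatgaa

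The 4 copies also share their promoters. RefSeq (GRCm38.p6) gives a promoter of 300 bases for 4 of the 5 transcripts, from 250 bases before to 50 after the start, and none under the name A230083N12Rik. Aligned on the TATA box, the promoters of Gm11757 and Gm13871 had 0 mismatches over 300 bases, and that of Gm11758 had 0 mismatches with either over the 268 bases they share. Gm11756 differed from Gm11757 at 9 of 288 bases. The bases before the GENCODE start are shown, with 2 motifs in capitals wherever they occur on either strand. These are TATAAA, the TATA box, and TAATTG, the core letters bound by the oocyte homeobox factor NOBOX, read as CAATTA on the reverse strand. TATAAA overlaps its own reverse complement in TTTATAAA.
Gm11757, chr4:73891113-73891330, minus strand: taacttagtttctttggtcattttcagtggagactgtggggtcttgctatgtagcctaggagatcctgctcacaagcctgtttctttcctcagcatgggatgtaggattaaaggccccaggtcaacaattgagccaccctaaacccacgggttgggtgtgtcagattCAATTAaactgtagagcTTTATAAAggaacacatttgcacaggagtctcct
Gm11756, chr4:73920761-73920966, minus strand: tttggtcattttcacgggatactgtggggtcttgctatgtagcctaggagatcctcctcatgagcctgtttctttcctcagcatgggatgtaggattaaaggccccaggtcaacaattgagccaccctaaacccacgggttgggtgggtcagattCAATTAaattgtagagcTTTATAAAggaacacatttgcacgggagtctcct

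In each of the 4 copies the box TATAAA began 32 bases before the GENCODE start. TATAAA was found in 13.6% and TAATTG in 8.0% of the 32851 promoters of the RefSeq table, on either strand. The 4 promoters were poor in CpG, with 2, 3, 3 and 5 CpGs in 300 bases for Gm11758, Gm11757, Gm13871 and Gm11756, where the median promoter of the table has 7. A match to such letters is a description of the sequence, and no binding was measured.

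A230083N12Rik is of another kind. It is a spliced antisense RNA of 2 exons and 572 bases on the minus strand (chr4:74250324-74251714, GRCm38), and it starts 165 bases before the start that RefSeq gives for Kdm4c at a CpG-rich promoter, in the opposite direction. Kdm4c encodes a demethylase of lysine 9 of histone H3. The deposited table lists this transcript beside Kdm4c, the gene on the other strand, and its name here comes from the annotation at its position. The 164 bases between the starts of A230083N12Rik and Kdm4c are shown on the A230083N12Rik strand with each CpG in capitals.
A230083N12Rik, chr4:74251715-74251878, minus strand: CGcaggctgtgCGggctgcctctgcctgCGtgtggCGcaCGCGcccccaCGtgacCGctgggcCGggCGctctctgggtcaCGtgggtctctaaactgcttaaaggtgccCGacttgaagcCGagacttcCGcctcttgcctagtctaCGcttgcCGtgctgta

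This stretch held 16 CpGs in 164 bases. The RefSeq promoter of Kdm4c that contains it held 28 CpGs in 300 bases, more than 85.8% of the promoters of the table, and neither TATAAA nor TAATTG. A230083N12Rik lies beyond Frmd3 from the tandem copies.

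How far the reads of the copies can be assigned bears on every value below. The libraries were read over 75 bases, and hits with a mapping quality below 20 were removed, which affects reads that fit several places equally well. Of the 75-base windows of the annotated Gm13871 transcript, 0 of 1250 were absent from all other genes among 141767 GENCODE transcripts. For Gm11758 it was 1 of 1251, for Gm11757 74 of 1250 (5.92%) and for Gm11756 179 of 1238 (14.5%). By contrast, all 498 windows of A230083N12Rik occurred in no other gene.

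**Figure D1:**
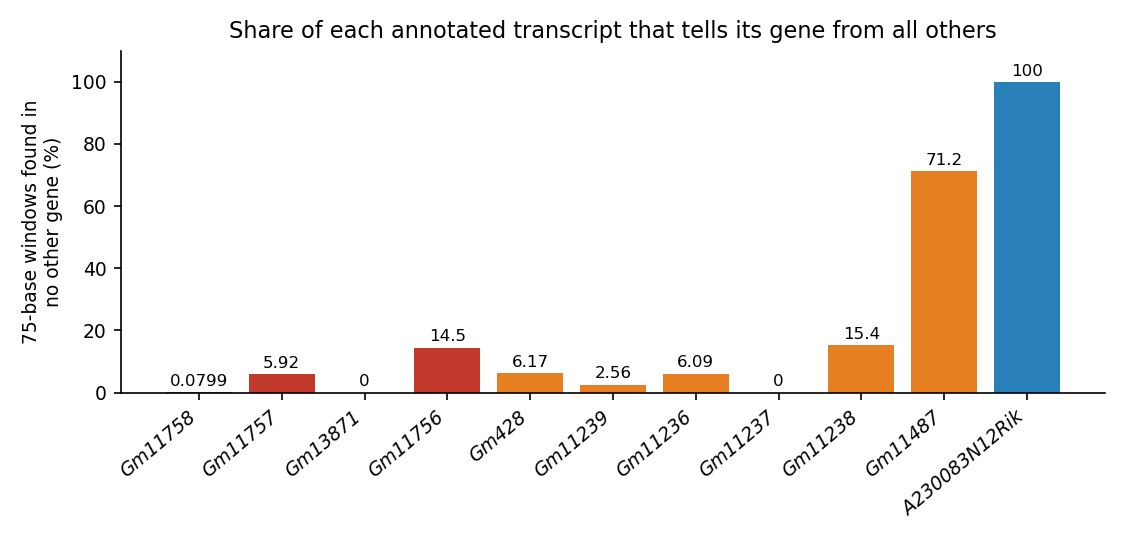
Share (%) of the 75-base windows of each annotated transcript that occur in no other gene, 1 bar per gene, for the tandem copies (red), the related copies outside the window (orange) and A230083N12Rik (blue). The tandem copies reach 14.5% at most, Gm11487 71.2% and A230083N12Rik 100%.

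The levels of single copies are therefore uncertain, and reads of 1 copy may be lost or counted under another. Gm13871 still held 44 to 66 reads per cKO library, although none of its annotated windows is its own. How those reads passed the mapping quality limit was not tested. The sum of the 4 copies is less open to such exchange among them, although reads shared with the copies outside the window can still move. On which part of a copy its reads fell was not analysed here.

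The libraries held between 8582493 and 12972366 mapped reads, so that 1 read was worth 0.0771 to 0.117 RPM. The share of reads outside the oocyte transcripts was 14.6% ± 1.30 (SD, n = 4) in Setd1b cKO and 9.73% ± 0.165 (SD, n = 3) in Setd1b WT. Setd1b itself ranged from 2.68 to 16.7 RPM in the cKO and from 8.61 to 17.7 RPM in the WT libraries, and the groups overlapped. That value covers the whole transcript and does not single out the floxed segment. All 8 oocyte markers in the table, among them Gdf9, Zp3 and Dppa3, were well above 1 RPM in every library, and their sum was 20857 to 21429 RPM in the cKO and 24745 to 25826 RPM in the WT.

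Of the 12 granulosa or cumulus cell markers, 6 reached 1 RPM in some library. Amh, Foxl2 and Gatm were at 0.174 RPM or less in all libraries, while Inha reached 13.2 RPM in the cKO and 4.32 RPM in the WT libraries, Fshr 5.15 and 2.92 RPM, and Hsd17b1 2.06 and 0.486 RPM. Kitl ran from 3.15 to 6.42 RPM in the cKO and from 3.46 to 8.33 RPM in the WT libraries. The summed level of the 12 was 74.7 to 87.1 RPM in the cKO and 49.9 to 68.4 RPM in the WT, most of it from Nr5a2 and Cyp19a1. The 6 theca or stroma markers summed to 6.24 to 8.32 RPM and 2.47 to 3.74 RPM, respectively, and Dcn, the 1 of them that was called, made up most of it in the cKO libraries. Cyp11a1, Col3a1 and Cyp17a1 had their highest value in a WT library, at 1.13, 0.648 and 0.162 RPM, as had Col1a1 at 0.486 RPM. Acta2 reached 0.871 RPM in the cKO and was at 0 in the WT libraries. All 3 blood markers in the table were at 0. The part of these differences in the results below was not tested.

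In the fit over all transcripts (limma on log2(RPM + 1), called at more than 2-fold and a Benjamini-Hochberg adjusted p under 0.05), 683 of 18179 tested transcripts (3.76%) were called higher and 355 (1.95%) lower in Setd1b cKO, in all 5.71%. Without WT replicate 2 the counts were 172 higher and 117 lower. The median log2 difference of all tested transcripts was 0.12. Centred on the median transcript, the split was 458 higher and 531 lower. All 5 listed transcripts were among those called higher, as the choice of members fixed, and nothing is read from that count. Every cKO library lay above every WT library for all 5, which held for 13.2% of all tested transcripts, while the reverse held for 7.14%.

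Gm11758, the first copy of the array, measured 5.05, 6.67, 6.27 and 4.54 RPM in cKO replicates 1 to 4. It measured 1.78, 0.848 and 1.96 RPM in WT replicates 1 to 3. The means were 5.63 ± 1.0 RPM (SD, n = 4) and 1.53 ± 0.599 RPM (SD, n = 3), and no WT library reached the lowest cKO library. These levels rested on 39 to 81 reads per cKO library and 11 to 22 per WT library.

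Gm11757, which carries the T of the distinguishing coding base, measured 7.72, 6.51, 6.01 and 5.24 RPM in the cKO libraries. It was the most even of the 5 in the WT libraries, at 1.70, 1.54 and 1.78 RPM. The means were 6.37 ± 1.04 RPM (SD, n = 4) and 1.67 ± 0.120 RPM (SD, n = 3).

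Gm13871, whose annotated transcript cannot be told from that of Gm11758 except for 1 end base, was the most even in the cKO libraries, at 5.25, 5.44, 5.49 and 5.13 RPM. In the WT libraries it stood at 2.02, 0.617 and 1.78 RPM, with replicate 2 well below the other two. The means were 5.32 ± 0.167 RPM (SD, n = 4) and 1.47 ± 0.752 RPM (SD, n = 3).

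Gm11756, the copy that lacks 12 coding bases, measured 3.27, 3.13, 2.96 and 2.56 RPM in the cKO libraries and 1.13, 0.154 and 1.12 RPM in the WT libraries. The means were 2.98 ± 0.304 RPM (SD, n = 4) and 0.804 ± 0.562 RPM (SD, n = 3). Its WT replicate 2 value rests on 2 reads and is below the 0.231 RPM that 3 reads are worth there.

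A230083N12Rik, the antisense RNA at the Kdm4c start, varied most among the cKO libraries. It measured 5.94 and 5.01 RPM in replicates 1 and 4 but 3.05 and 2.87 RPM in replicates 2 and 3. The WT libraries held 1.21, 0.540 and 0.748 RPM. The means were 4.22 ± 1.5 RPM (SD, n = 4) and 0.834 ± 0.346 RPM (SD, n = 3), and the groups did not overlap.

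**Figure D2:**
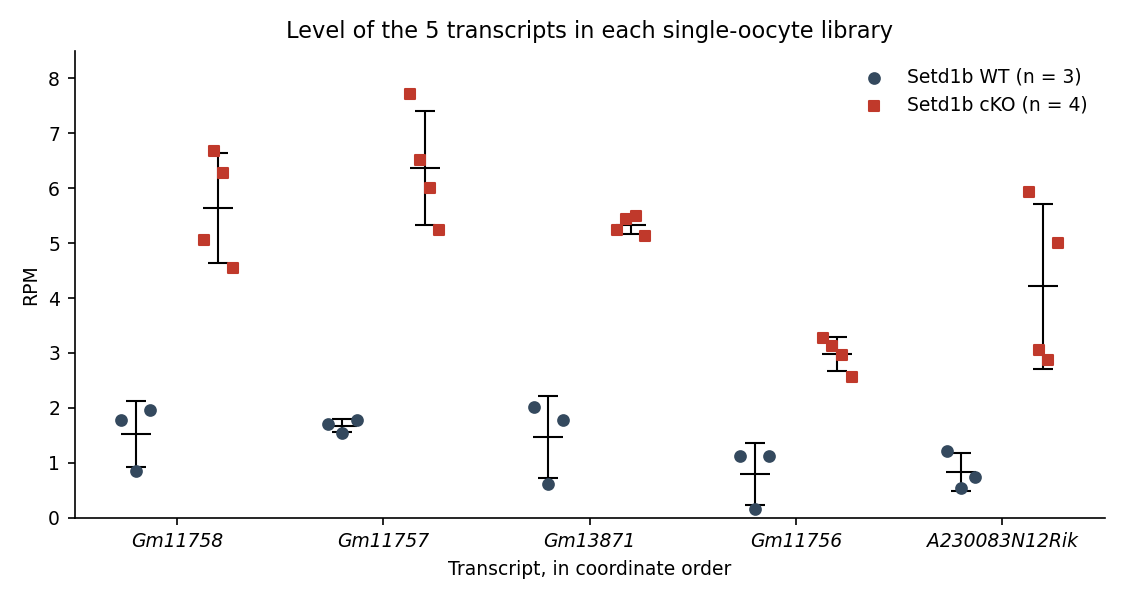
Level (RPM) of the 5 transcripts in each of the 3 Setd1b WT (circles) and 4 Setd1b cKO libraries (squares), with the mean and SD of each group as bars. The highest WT value is 2.02 RPM (Gm13871) and the lowest cKO value is 2.56 RPM (Gm11756).

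On the log2(RPM + 1) scale the differences, cKO minus WT, were 1.41 for Gm11758, 1.45 for Gm11757, 1.41 for Gm13871, 1.19 for Gm11756 and 1.48 for A230083N12Rik. Their median was 1.41, beside 0.12 for all tested transcripts. This scale understates the change of transcripts with few RPM, and the ratios of the mean RPM ran from 3.61 for Gm13871 to 5.05 for A230083N12Rik. WT replicate 2 was the lowest library for each of the 5.

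Summed over the 4 tandem copies, the cKO libraries held 21.3, 21.7, 20.7 and 17.5 RPM and the WT libraries 6.64, 3.16 and 6.64 RPM. The means were 20.3 ± 1.93 RPM (SD, n = 4) and 5.48 ± 2.01 RPM (SD, n = 3), a ratio of 3.70. Even the lowest cKO library stood 2.63-fold above the highest WT library. Over all 5 transcripts the sums were 24.5 ± 2.03 RPM (SD, n = 4) and 6.32 ± 2.28 RPM (SD, n = 3), a difference of 1.85 on the log2(RPM + 1) scale. That difference was 1.95 when the libraries were scaled by the reads within transcripts instead of all mapped reads, and 1.56 without WT replicate 2.

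The share of these reads that each copy took was compared next, without a test. Gm11758 held 27.7% ± 3.37 (SD, n = 4) of the copies' reads in the cKO libraries and 27.7% ± 1.59 (SD, n = 3) in the WT libraries. For Gm13871 the shares were 26.4% ± 2.13 and 25.6% ± 5.58, for Gm11757 31.3% ± 3.35 and 33.7% ± 13.1, and for Gm11756 14.7% ± 0.478 and 13.0% ± 6.99. Each of these differences is smaller than the SD of the WT libraries. The wide WT spread came from replicate 2, where Gm11757 took 20 of 41 reads (48.8%, 95% Wilson interval 34.3% to 63.5%) and Gm11756 2 of 41 (4.88%, 1.35% to 16.1%). The intervals cover counting error only, since amplified reads without molecular identifiers are not independent molecules.

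**Figure D3:**
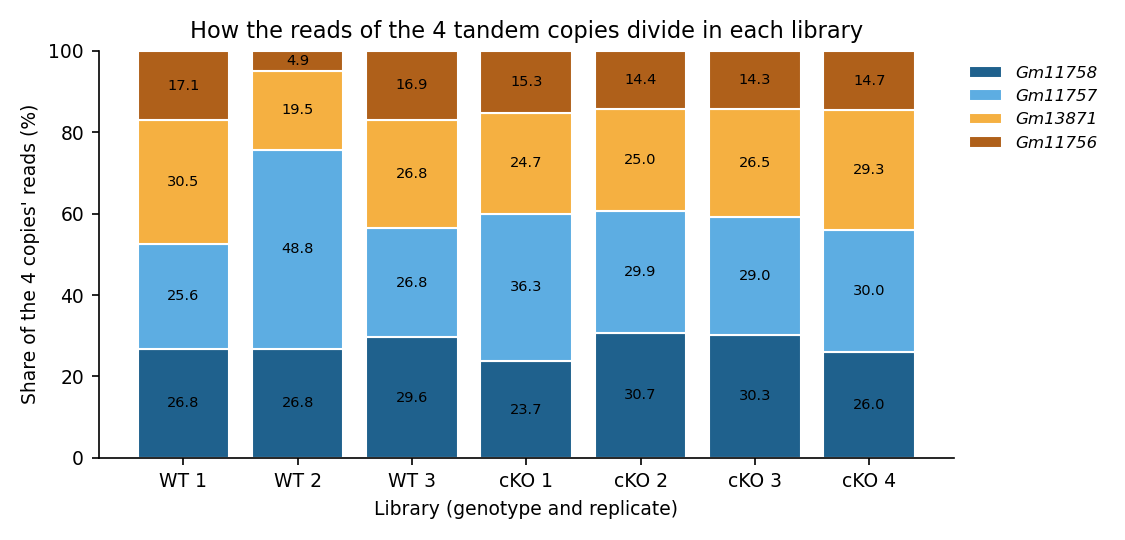
Share (%) of the reads of the 4 tandem copies that each copy took, 1 stacked bar per library, WT replicates 1 to 3 and then cKO replicates 1 to 4. Gm11756 takes between 14.3% and 17.1% in every library but WT replicate 2, where it takes 4.88%.

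Levels were ranked between the 5 genes per kb of annotated transcript. The copies can lose reads to the mapping quality limit that A230083N12Rik keeps, since few of their 75-base windows are unique. Their place below A230083N12Rik is therefore uncertain. So is the order among the copies, whose share of unique windows differs, from 0% for Gm13871 to 14.5% for Gm11756. In the cKO libraries A230083N12Rik was highest at 7.37 ± 2.63 RPM per kb, followed by Gm11757 at 4.81 ± 0.785, Gm11758 at 4.25 ± 0.756, Gm13871 at 4.02 ± 0.126 and Gm11756 at 2.27 ± 0.232 (SD, n = 4 each). The ranges of neighbours in this order overlapped, except that all cKO libraries of Gm11756 lay below all those of Gm13871. The WT libraries gave the same order, from 1.46 ± 0.604 RPM per kb for A230083N12Rik to 0.613 ± 0.429 for Gm11756 (SD, n = 3), with all neighbouring ranges overlapping.

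The 4 other transcripts of the window were too low to be tested, and the groups overlapped in each. Gm13867, an unprocessed pseudogene that resembles the copies, is the first transcript of the window, stands on the plus strand and held 0.0990, 0.329, 1.83 and 0.932 RPM in the cKO libraries and 0, 0.308 and 0 RPM in the WT libraries. Its difference was 0.62 on the log2(RPM + 1) scale but 2.70 with voom, above all of the listed transcripts (1.89 to 2.29), and its ratio of mean RPM was 7.76, on at most 21 reads per library. Frmd3, which encodes a FERM domain protein and lies between the array and A230083N12Rik, held 0.990, 0.494, 2.35 and 0.466 RPM in the cKO libraries and 0, 0 and 0.748 RPM in the WT libraries. Its difference was 0.70 on the log2(RPM + 1) scale, below those of the listed transcripts, but 2.46 on log2 RPM as deposited and 3.09 with voom, above all of theirs (1.92 to 2.35 and 1.89 to 2.29), and its ratio of mean RPM was 4.31. An unnamed transcript at chr4:74226555-74227965 (GRCm38, minus strand) had 1 read in 1 library of each group.

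Kdm4c is the last transcript of the window and runs on the plus strand, opposite to A230083N12Rik. It held 0.792, 1.4, 1.22 and 0.350 RPM in the cKO libraries and 0.486, 0 and 0.468 RPM in the WT libraries, a difference of 0.55 on the log2(RPM + 1) scale and 2.02 with voom. The deposited transcripts of A230083N12Rik and Kdm4c overlap by 40 bases, and use of the strand in counting is not given in the sources used here, so reads from those bases cannot be told apart.

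Outside the window, the 1 Mb before it held 10 transcripts and the 1 Mb after it held 0. Of the 10, 7 were tested, and here the fit over all transcripts applies, since they played no part in choosing the members. Of these 7, 1 was called higher and 0 lower, beside 3.76% and 1.95% of all tested transcripts. An unadjusted p under 0.05 was found for 4 of the 7 and for 21.7% of all tested transcripts. These 4 are related copies, and 3 of them share most of their 75-base windows with other genes and are not separate measurements. Of those windows, 2.56% of Gm11239, 6.17% of Gm428 and 15.4% of Gm11238 occur in no other gene, and 19.9%, 19.9% and 16.9% occur in a tandem copy. All 7 differences were above 0, as were 60.3% of those of all tested transcripts, but 1 of the 7, the unnamed transcript at chr4:73443750-73468312, turned below 0 when centred (-0.0959), after quantile normalisation (-0.0263) and without cKO replicate 1 (-0.0383) or 2 (-0.0341). The 7 had a median of 0.85 on the log2(RPM + 1) scale beside 0.12 for all tested transcripts.

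Of the 7 tested flanking transcripts, 4 are further copies of the same gene, which were 96.4% to 97.1% identical to the tandem copies. Gm11487, a minus-strand copy, was the 1 called higher. It held 10.1, 18.0, 17.8 and 19.0 RPM in the cKO libraries and 5.75, 5.16 and 5.33 RPM in the WT libraries, and the groups did not overlap. The means were 16.2 ± 4.13 RPM (SD, n = 4) and 5.42 ± 0.301 RPM (SD, n = 3), and the limma log2 difference was 1.39 (SE 0.28, adjusted p = 0.0168). The call was lost without cKO replicate 3 (adjusted p = 0.0572), WT replicate 1 (0.0604) or WT replicate 2 (0.0752), again by limma. Unlike the tandem copies, Gm11487 can largely be told from its relatives, with 71.2% of its 75-base windows in no other gene.

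The other related copies stand between Gm11487 and the array, on the plus strand. The transcript listed as Gm11238, which spans the annotated copies Gm11236 and Gm11237 as well, held 20.2, 19.4, 30.4 and 31.2 RPM in the cKO libraries and 14.4, 8.94 and 13.9 RPM in the WT libraries (limma log2 difference 0.96, adjusted p = 0.0680). Gm11239 held 10.5, 8.98, 12.1 and 16.5 RPM and 6.80, 4.47 and 7.20 RPM, respectively (0.85, adjusted p = 0.110 in limma). Gm428 held 9.01, 9.80, 13.0 and 14.6 RPM and 5.67, 4.01 and 6.18 RPM (1.0, adjusted p = 0.0607 in limma).

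In each of these 3 copies every cKO library lay above every WT library, but none passed the threshold. Scaled by the reads within transcripts, Gm428 (adjusted p = 0.0421) and Gm11238 (0.0473) passed it in limma. Summed, the 4 transcripts of related copies held 65.2 ± 14.7 RPM (SD, n = 4) in the cKO and 29.3 ± 5.81 RPM (SD, n = 3) in the WT libraries, a ratio of 2.23 beside 3.70 for the tandem array. The difference between those ratios was not tested. Among the libraries, cKO replicate 4 was the lowest of its group for the tandem sum at 17.5 RPM and the highest for the related copies at 81.3 RPM.

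The promoter of Gm428 shows the likeness of the related copies to the array. It differed from that of Gm11758 at 9 of 300 bases, and the same motifs stand in capitals.
Gm428, chr4:73683264-73683513, plus strand: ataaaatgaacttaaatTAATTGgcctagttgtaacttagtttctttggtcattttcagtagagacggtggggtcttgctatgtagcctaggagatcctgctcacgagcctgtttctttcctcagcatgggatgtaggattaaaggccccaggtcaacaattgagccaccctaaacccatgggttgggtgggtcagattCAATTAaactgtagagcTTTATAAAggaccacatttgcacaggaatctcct

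None of the other 3 tested flanking transcripts passed the threshold. Rasef was not matched by a sequence search with the Gm11757 transcript. The unnamed ones were not compared with the copies in sequence. Rasef, the gene of a Ras-like GTPase and the nearest transcript before the window, held 1.88, 0.659, 2.18 and 1.75 RPM in the cKO libraries and 1.30, 0.848 and 0.468 RPM in the WT libraries (limma log2 difference 0.47, adjusted p = 0.454). An unnamed transcript at chr4:73443750-73468312 (GRCm38, minus strand) lay between the related copies, and it held 15.4 to 26.4 RPM in the cKO and 19.6 to 21.9 RPM in the WT libraries (0.06, adjusted p = 0.925 in limma). Another, at chr4:73469632-73479803, held 0.891 to 2.35 RPM and 0.231 to 1.31 RPM, respectively (0.52, adjusted p = 0.427 in limma, and 1.21 with voom, above Gm428, Gm11238 and Gm11239 there). The groups overlapped in all 3.

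**Figure D4:**
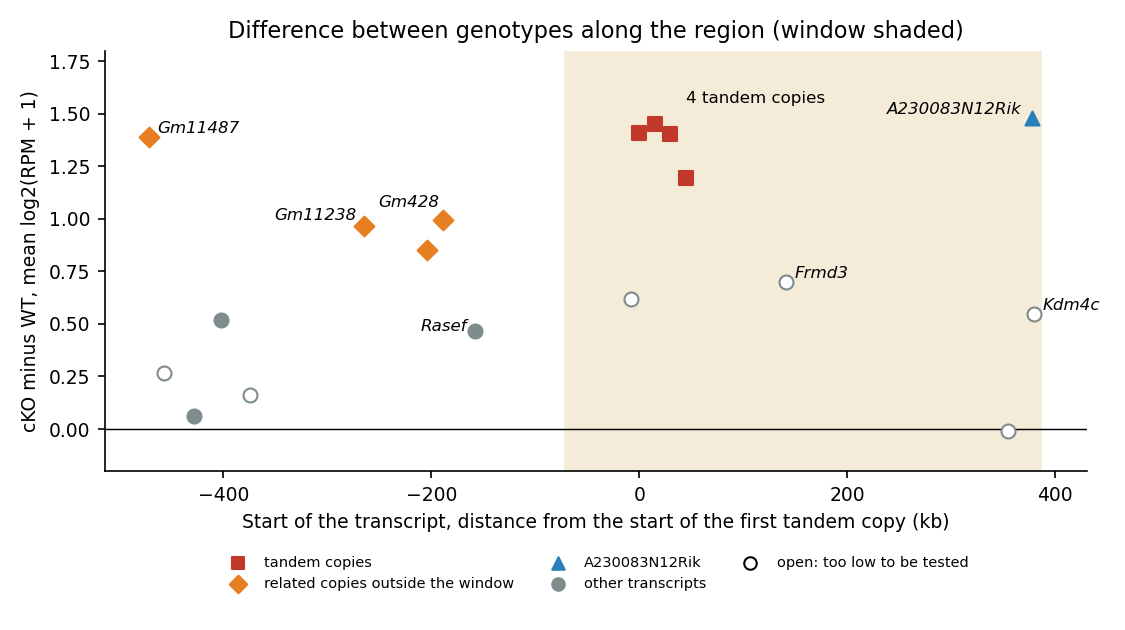
Difference between genotypes, cKO minus WT in mean log2(RPM + 1), against the start of each transcript in kb from the start of the first tandem copy; the window is shaded, open symbols were too low to be tested, and Aldoart1, farther away, is left out. The tandem copies (1.19 to 1.45) and A230083N12Rik (1.48) stand above Gm13867, Frmd3 and Kdm4c within the window on this scale, while with voom these 3 gave 2.70, 3.09 and 2.02 beside 1.89 to 2.29. The related copies outside the window lie between 0.85 and 1.39.

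More distant relatives of the copies were found by sequence search (blastn with the Gm11757 transcript), which matched 15 genes including the array, 12 of them in the table. The 1 relative on another chromosome that was expressed enough to be tested was BC049762 on chromosome 11, 68.5% identical over 632 bases. It held 1.19, 4.94, 2.26 and 6.41 RPM in the cKO libraries and 1.05, 0.385 and 1.68 RPM in the WT libraries. The groups overlapped, and the limma log2 difference of 1.10 (SE 0.44) did not pass the threshold (adjusted p = 0.175).

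Along the genome, 5 adjacent tested transcripts called higher formed the longest run, the one described here, which the choice of members fixed. There were 7 runs of 3, 33 runs of 2 and 591 called transcripts that stood alone among their tested neighbours. A run of copies that share reads is not a series of independent measurements.

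The 5 named transcripts elsewhere with the profile most like the mean of the listed ones over the 7 libraries were Tc2n, Poldip2, Tmem214, Mecom and Fryl. Likeness was the root mean square distance of centred log2(RPM + 1) values over 11986 candidates. It was 0.13 for Tc2n, which encodes a C2 domain protein, 0.14 for both Poldip2 and Tmem214, 0.15 for Mecom, a zinc finger transcription factor, and 0.17 for Fryl. The median over the candidates was 0.77, and the listed transcripts themselves lay 0.11 to 0.27 from their own mean. Tc2n held 3.83 to 5.54 RPM in the cKO and 0.925 to 1.94 RPM in the WT libraries, close to the levels of the tandem copies, and Tmem214 held 105 to 132 RPM and 39.6 to 48.2 RPM, respectively.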

How the data were processed

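Single-oocyte cDNA was amplified by the authors (SMARTer) and sequenced as single reads; they trimmed the reads, mapped them with Hisat to GRCm38, removed hits with mapping quality below 20 and quantified merged oocyte transcripts in SeqMonk. The deposited values are log2 RPM, with 0.9 read in place of 0. Of the values above that floor, 100% were whole reads (tolerance 0.1) once divided by the value of 1 read, which gave the library totals.

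Transcripts took GENCODE M21 names on the same strand where the overlap was 0.5 or more of their joint span. RPM values were transformed to log2(RPM + 1), and transcripts that reached 1 RPM in 3 or more libraries entered 1 two-sided fit (limma 3.58.1 with intensity trend, R 4.3.3, no covariates), with Benjamini-Hochberg adjustment over 18179 transcripts. All 7 libraries were used, and no 2 were duplicates. The script was tested on simulated data. Voom on the recovered reads called 443 transcripts higher and 328 lower. Named were the rows of the window, called and nearest flanking transcripts within 1 Mb, Setd1b and the 5 nearest profiles with a mean of at least 2 RPM; the other tested flanking transcripts and BC049762 were named after their values had been seen. Members and lists were chosen with earlier results of these data known.

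Transcript sequences (GENCODE M21) were aligned with mafft 7.526 and searched with blastn 2.17.0 and for exact 75-base windows on both strands. Promoters came from RefSeq (GRCm38.p6). Alternatives were other pseudocounts, filters, scalings, voom, a replicate block and each library left out. The labels give Cre-negative floxed females as WT.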

Additional observations from a re-analysis of the deposited data

Results flagged for a closer look

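Of 16 values examined over the 4 cKO libraries, 2 had a library far from the others by Dixon's ratio of the gap to the range, and chance alone gives about 1 in 20 groups. For Gm11487, the related copy farthest from the array, cKO replicate 1 was lowest at 10.1 RPM against 17.8 to 19.0 RPM in the other cKO libraries (ratio 0.872). For the unnamed transcript at chr4:74226555-74227965 the ratio was 1, since replicate 2 held 1 read and the other cKO libraries none.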

How the results depend on the processing

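The 5 listed transcripts were chosen for being higher in cKO, so the sign of their differences under alternatives is no test. All 75 values were above 0, from 0.46 (Gm11756, pseudocount of 5 RPM) to 2.35 (Gm11756, log2 RPM as deposited). Of the 75, 21 moved from the main value by more than the SD within groups. With a pseudocount of 5 RPM the 5 ran from 0.46 to 0.76, all below 2-fold. The differences of Frmd3, Gm13867 and Kdm4c, too low to be tested, ran from 0.20 to 3.09, 0.18 to 2.70 and 0.16 to 2.02, each lowest with a pseudocount of 5 RPM and highest with voom. The log2 difference of the sum of the 5 was 1.402 with a pseudocount of 5 RPM and 1.56 to 2.02 with 1 library left out. Over all transcripts, 315 were called higher with a pseudocount of 5 RPM, 396 with no filter, 428 after quantile normalisation and 443 with voom. With 1 library left out, 172 to 857 were called higher and 117 to 435 lower, both lowest without WT replicate 2. The call of Gm11487 held in 15 of 18 alternatives (adjusted p 0.0120 to 0.0752 in limma). Among the flanking transcripts 3 were called higher when scaled by reads within transcripts, and 0 to 1 with 1 library left out (0 without cKO replicate 3, WT replicate 1 or WT replicate 2). The log2 difference of the unnamed transcript at chr4:73443750-73468312 turned to -0.0959 when centred and -0.0263 after quantile normalisation, and ran from -0.0383 without cKO replicate 1 (-0.0341 without cKO replicate 2) to 0.210 without cKO replicate 4. The causes were not tested. The median log2 difference of all tested transcripts moved from 0.12 to -0.03 when centred, 0.01 after quantile normalisation and 0.19 when scaled by reads within transcripts.

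Deviations of same-numbered libraries correlated at 0.192, 0.295 and -0.129 for numbers 1 to 3, and only cKO replicate 1 correlated best with its own number, so the numbers were not taken as pairs. With a replicate block, in which cKO replicate 4 has no partner, 924 transcripts were called higher and 479 lower, and Gm11487 kept its call (1.31, adjusted p = 0.0223 in limma). Depth limits the low members most: WT replicate 2 held 2 reads of Gm11756, and by the annotation no 75-base window is particular to Gm13871, so depth alone would not separate it.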
